A study of Mus musculus with 7 samples.

Results

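The genes described here encode the proteins of the mitochondrial ribosome, and the measurement is HDAC1 binding at their promoters in the mouse limb bud. Members were the protein-coding genes whose symbols begin with Mrpl or Mrps followed by a number in the GENCODE M21 annotation of mm10. There were 78 such genes among 21864 protein-coding genes, and all 78 were looked up. Binding came from ChIP-seq of 4 HDAC1 ChIP samples and 3 inputs, which are sheared chromatin taken without antibody. All 7 samples were pooled forelimb and hindlimb buds of wild-type Swiss Webster embryos at E11.5, with 40 to 44 somites, and the labels give 3 litters for a pool. No group carried a mutation or a treatment, so the data hold no comparison between conditions. The limb bud is a mixture of mesenchyme, ectoderm and other cells, and a peak does not say which of these cells carried HDAC1.

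HDAC1 is a histone deacetylase that removes acetyl groups from histone tails and works in corepressor complexes such as NuRD, Sin3 and CoREST. The mitochondrial ribosome translates the few proteins encoded in mitochondrial DNA, which are core subunits of the respiratory chain. Its RNAs come from mitochondrial DNA, but every one of its proteins is encoded in the nucleus, made in the cytosol and imported. Some of these proteins have counterparts in bacterial ribosomes and others were added in the mitochondrial lineage. Promoters of such housekeeping genes are often rich in CpG, and letters bound by NRF1, ETS factors and YY1 are known from many genes for mitochondrial proteins.

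The 4 ChIP samples were reduced to a single list of 15347 peaks, each with a chromosome, a start and an end and placed in the order of the list. That position is called the rank here, with 1 as the first peak. The list does not state what its order is based on, so a better rank means only an earlier place in the list. The list holds no read number, height or value for a single sample. The paper describes its own table of HDAC1 peaks as ordered by rank, with a fold change and a false discovery rate for each. Those values were not used here. From the list alone, the depth behind a peak is therefore unknown and no value has a replicate error. Differences between counts of genes are described without a test. A gene was counted as having a peak when a peak covered at least 1 bp between 2 kb upstream and 1 kb downstream of any of its protein-coding transcription start sites (TSSs).

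Of the 78 genes, 56 (71.8%) had an HDAC1 peak and 22 did not, while 9630 of the 21864 protein-coding genes (44.0%) had one. The nearest peak of each of the 56 lay over a TSS or within 159 bp of one, a bound set by the members themselves. Of the 9630 genes with a peak, 8610 (89.4%) had one within that distance. The median rank of the best-ranked peaks of the 56 members was 6689. Among genes whose promoters were rich in CpG, the share with a peak was 74.6% for members and 75.5% for all protein-coding genes. Such a promoter was present at 71 of the 78 members (91.0%) and at 10148 of all genes (46.4%). Among the remaining promoters, the share with a peak was 42.9% for members, only 7 in number, and 16.8% for all genes. The split by CpG was chosen after seeing the data, and its part in the difference of the overall shares was not tested.

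Promoter sequences of 6 members show the range. They run from 250 bases before to 50 bases from the TSS, and were read 5′ to 3′ on the strand of the gene from the GRCm38.p6 genome, the build of the peaks. Mrps6 had the best-ranked peak and Mrps16 the worst-ranked peak. Mrps18b had the best-ranked peak of a member with a divergent partner, a coding gene on the other strand starting up to 1000 bp upstream. Mrps10 and Mrpl1 had no peak, with the highest and the lowest CpG ratio of the members without one. Mrps11 was added after its values were seen, because its promoter is also that of Mrpl46. Capitals mark the letters GCATGCGC (NRF1), CCGGAAG (ETS), AAGATGGC (YY1), GGGCGG (SP/KLF) and CCAAT (NF-Y) on either strand, and some of these letters can overlap. A match is a description of the sequence and not a bound site.
Mrps6, peak ranked 511, chr16:92058020-92058319, plus strand: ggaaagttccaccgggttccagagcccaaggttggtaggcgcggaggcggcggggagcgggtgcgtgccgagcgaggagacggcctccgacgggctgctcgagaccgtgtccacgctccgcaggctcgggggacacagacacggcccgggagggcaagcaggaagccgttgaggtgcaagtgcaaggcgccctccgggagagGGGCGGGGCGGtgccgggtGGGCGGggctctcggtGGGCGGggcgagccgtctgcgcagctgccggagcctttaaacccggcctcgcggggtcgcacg
Mrps18b, peak ranked 1576, chr17:35916340-35916639, minus strand: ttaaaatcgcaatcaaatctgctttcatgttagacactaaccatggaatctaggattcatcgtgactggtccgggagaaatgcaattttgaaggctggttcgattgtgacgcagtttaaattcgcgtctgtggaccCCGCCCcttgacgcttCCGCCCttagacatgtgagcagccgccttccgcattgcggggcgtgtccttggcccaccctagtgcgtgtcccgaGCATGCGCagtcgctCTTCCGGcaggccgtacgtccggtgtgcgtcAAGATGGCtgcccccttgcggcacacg
Mrps16, peak ranked 14356, chr14:20393585-20393884, minus strand: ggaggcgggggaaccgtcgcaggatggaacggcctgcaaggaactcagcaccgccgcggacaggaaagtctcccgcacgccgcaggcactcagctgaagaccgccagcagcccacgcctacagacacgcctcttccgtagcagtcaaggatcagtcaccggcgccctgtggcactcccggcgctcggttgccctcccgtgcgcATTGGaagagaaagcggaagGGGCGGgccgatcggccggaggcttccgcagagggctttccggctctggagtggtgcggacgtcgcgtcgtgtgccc
Mrps11, peak ranked 7875, chr7:78782869-78783168, plus strand: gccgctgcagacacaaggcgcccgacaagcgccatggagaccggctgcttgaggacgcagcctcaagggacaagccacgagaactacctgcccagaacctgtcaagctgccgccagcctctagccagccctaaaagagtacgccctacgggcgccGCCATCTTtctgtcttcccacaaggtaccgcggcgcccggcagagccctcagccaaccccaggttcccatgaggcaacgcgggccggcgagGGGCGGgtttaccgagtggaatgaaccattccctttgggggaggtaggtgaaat
Mrps10, no peak, chr17:47368637-47368936, plus strand: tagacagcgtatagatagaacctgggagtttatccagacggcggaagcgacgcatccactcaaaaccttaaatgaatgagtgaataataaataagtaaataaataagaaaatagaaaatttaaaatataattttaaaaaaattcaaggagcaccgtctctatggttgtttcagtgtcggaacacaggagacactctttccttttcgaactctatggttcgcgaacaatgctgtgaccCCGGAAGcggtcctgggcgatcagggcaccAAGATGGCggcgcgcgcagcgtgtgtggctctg
Mrpl1, no peak, chr5:96209243-96209542, plus strand: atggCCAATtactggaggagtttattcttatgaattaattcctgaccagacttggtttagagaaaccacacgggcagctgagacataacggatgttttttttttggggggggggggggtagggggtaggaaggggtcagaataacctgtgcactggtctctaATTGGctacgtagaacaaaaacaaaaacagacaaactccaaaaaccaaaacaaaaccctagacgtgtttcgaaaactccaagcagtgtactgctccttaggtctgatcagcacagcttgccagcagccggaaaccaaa

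The promoters of Mrps6 and Mrps16, at the 2 ends of the ranking, had nearly the same CpG ratio (observed over expected CpG), 0.952 and 0.943. Mrps10, with no peak, had a higher ratio (1.25) than any other member and held the ETS and the YY1 letters. The ratio is relative to the C and G content, which was 44.0% for Mrps10, 73.7% for Mrps6 and 68.3% for Mrps16. Mrps18b held 1 match each to the NRF1, ETS and YY1 letters and 2 to those of SP/KLF. The Mrpl1 promoter had a ratio of 0.388 and matched only the NF-Y letters, at 2 places.

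The nearest peak of members lay close to the TSS. In 45 of the 78 genes (57.7%) a peak covered a TSS base, against 32.8% of all protein-coding genes. Those shares include genes without a peak, and in CpG-rich promoters they were 59.2% and 59.6%. Among genes with a peak, the best-ranked one covered a TSS in 78.6% of members and 70.5% of all genes. In the other 11 members with a peak the nearest peak began within 159 bp of a TSS. These were Mrps6 (30 bp), Mrpl42 (28 bp), Mrps34 (34 bp), Mrps16 (35 bp), Mrpl13 (49 bp), Mrpl38 (69 bp), Mrps36 (108 bp), Mrps24 (138 bp) and Mrpl16 (159 bp), whose peaks lay downstream, and Mrpl27 (18 bp) and Mrpl41 (152 bp), whose peaks lay upstream. By this distance the members closest to the edges of the window were Mrpl16, Mrpl41 and Mrps24. Single peaks reached further out, such as the best-ranked peaks of Mrps6 (from 30 to 1079 bp downstream) and Mrps26 (from 608 to 957 bp downstream).

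The 22 members without a peak each lay 8348 bp or more from the nearest one. The closest of them was Mrpl20, a large subunit protein with a bacterial counterpart, whose TSS was 8348 bp from the nearest peak. Mrps17 followed at 9373 bp and Mrps21 at 10981 bp, both in the small subunit. The median distance was 38900.5 bp, and the largest was 547916 bp, for Mrpl32, another large subunit protein. Over all protein-coding genes the distance was 81267 bp at percentile 72.0, about the middle of the genes without a peak. By that measure the members without a peak were not farther from one than such genes in general. No member had its nearest peak between 159 and 8348 bp away. Both bounds are members' own distances, so the interval is empty of members by construction. It held 1965 of all protein-coding genes (8.99%). For members the call was thus the same with windows of 500 bp and of 5 kb on both sides of a TSS.

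**Figure D1:**
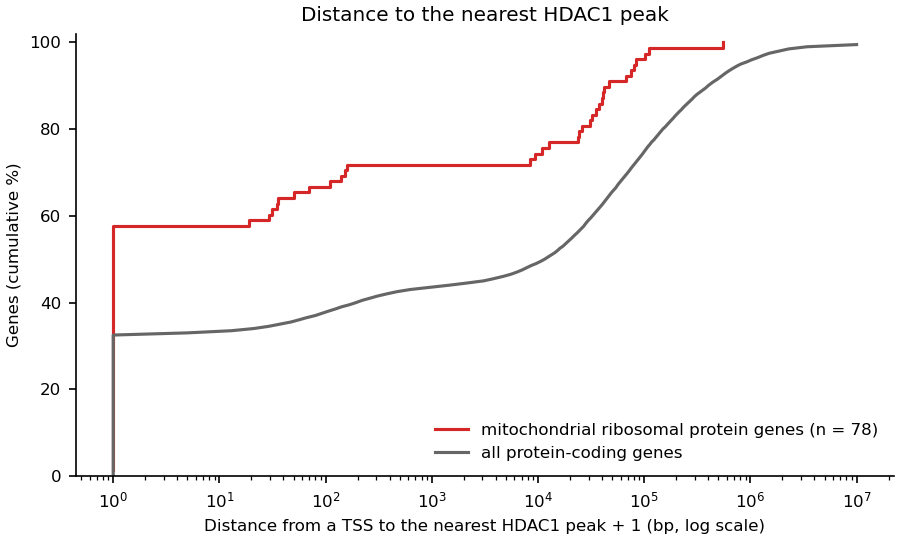
Cumulative share of genes (y axis, %) by the distance from a TSS to the nearest HDAC1 peak plus 1 bp (x axis, log scale), for the 78 mitochondrial ribosomal protein genes (red) and all 21864 protein-coding genes (grey). The red curve starts at 57.7%, reaches 71.8% at 159 bp and stays flat until 8348 bp. Both bounds are members' own distances. The grey curve rises slowly across that interval.

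Most peaks reached further into the gene than upstream of it. The centre of the best-ranked peak lay downstream of the TSS in 44 of the 56 members (78.6%), with a median of 109.5 bp downstream and quartiles at 15.5 and 177.5 bp. For all protein-coding genes with a peak, 73.1% of centres were downstream, the median was 160.5 bp and the quartiles were -19.25 and 326.25 bp, with negative values upstream. The middle values of members were thus the more tightly placed. Best-ranked peaks summed to 32300 bp over the 56 genes, with the peak of Mrpl46 and Mrps11 counted for each. Of this, 34.3% lay upstream of the annotated gene, 17.8% in untranslated exons and 16.3% in coding exons. The other 31.6% lay elsewhere inside the annotated gene and was counted as intron. An annotated gene can begin upstream of the TSS used, as at Mrpl46, whose peak reached 210 bp upstream of it with no base counted as upstream.

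**Figure D2:**
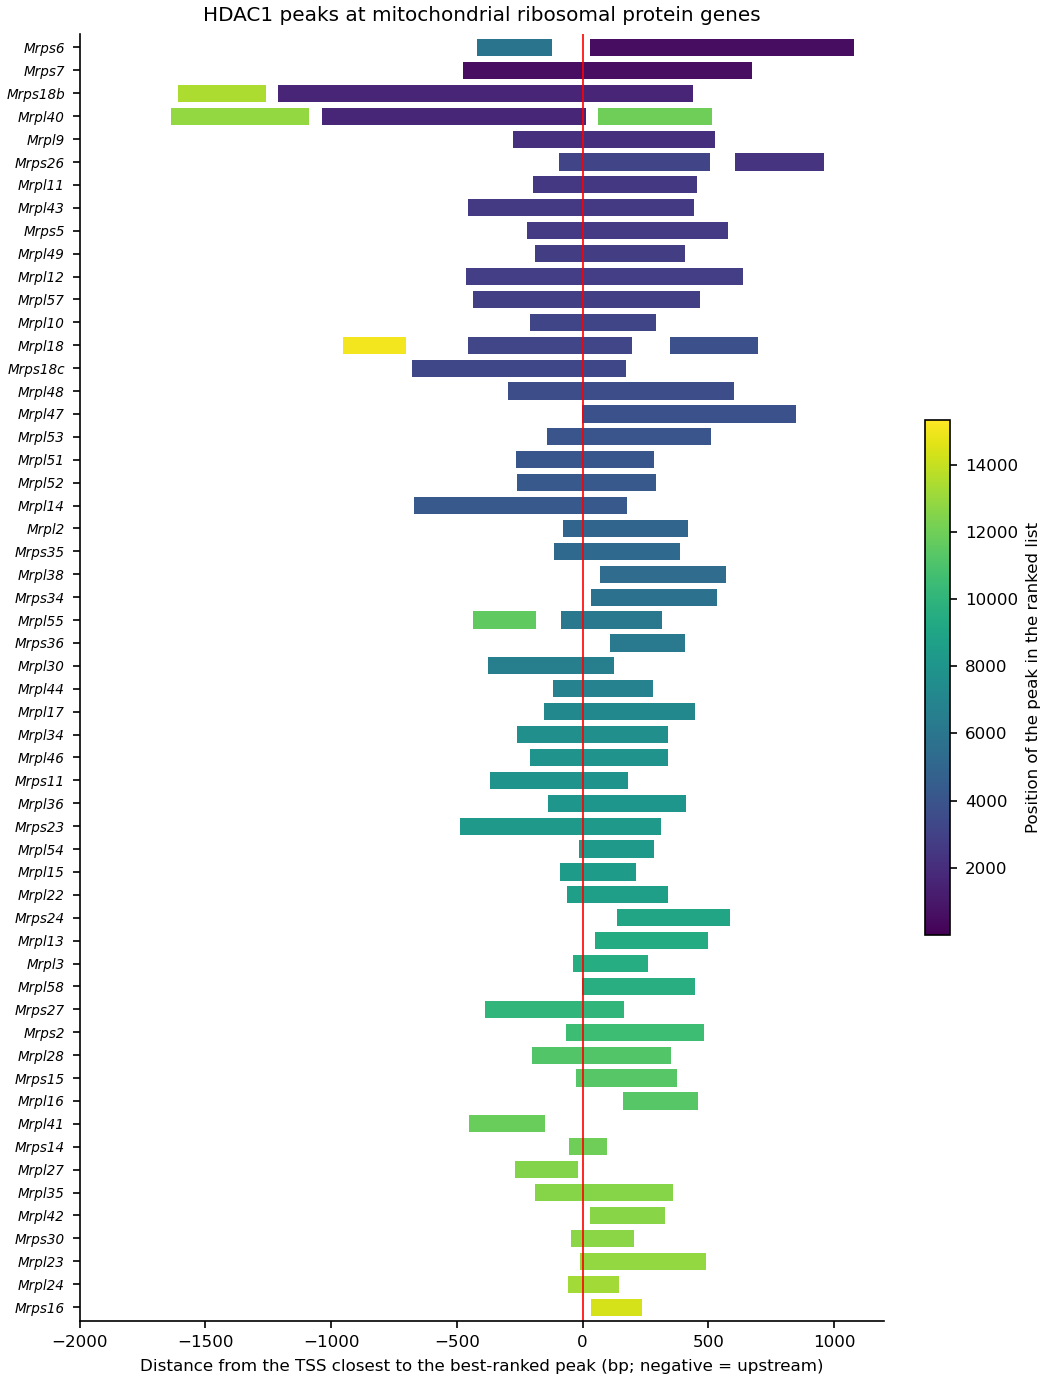
HDAC1 peaks of the 56 members with a peak (rows, ordered by the rank of the best peak), drawn as bars by distance in bp from the TSS closest to the best-ranked peak (red line, upstream to the left) and coloured by rank from dark (first) to yellow (last). In every row a bar crosses the line or ends within 159 bp of it, for Mrps26 by its second peak. The second peak of Mrpl48, at another TSS, lies outside the drawn range.

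The 10 best-ranked members had peaks ranked between 511 and 2700. First was Mrps6, a small subunit protein with a bacterial counterpart, whose peak (chr16:92058300-92059349, rank 511, 1050 bp) started 30 bp downstream of its TSS. Of this peak, 136 bp lay in untranslated exon, 45 bp in coding exon and 869 bp in intron. The same peak covered the TSSs of Slc5a3, a myo-inositol transporter gene, and of Gm49711, so it cannot be given to Mrps6 alone.

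Next was Mrps7, whose protein organises the head of the small subunit, with a peak of rank 598 and 1150 bp (chr11:115603450-115604599). It also covered the TSS of Gga3, which encodes a Golgi sorting adaptor. Mrps18b, one of 3 genes related to bacterial S18, had the longest best-ranked peak of all members, 1650 bp at rank 1576. It covered the TSS of Ppp1r10, a regulator of protein phosphatase 1. Mrpl40 followed at rank 1628, with a peak of 1050 bp that covered the TSS of Hira, the histone H3.3 chaperone. Each of these first 4 peaks thus lay over the start of another coding gene as well.

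The other members of this group were Mrpl9 (rank 2105, 800 bp), Mrps26 (rank 2319, 350 bp), Mrpl11 (rank 2518, 650 bp), Mrpl43 (rank 2583, 900 bp), Mrps5 (rank 2680, 800 bp) and Mrpl49 (rank 2700, 600 bp). Mrpl11 belongs to the base of the stalk where translation factors dock, and its peak lay in the window of no other coding gene. The peak of Mrps26 also lay in no other coding window, 608 bp downstream of its TSS, and a second peak, at rank 3087 and 600 bp long, covered the TSS. The peaks of the remaining 4 covered the TSS of a neighbour, namely Oaz3 at Mrpl9, Twnk at Mrpl43, Zfp661 at Mrps5 and Fau at Mrpl49. Fau encodes the cytosolic ribosomal protein S30 fused to a ubiquitin-like protein, so that 1 peak lay over genes of both ribosomes.

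The 5 worst-ranked members were Mrps16 (rank 14356, 200 bp), Mrpl24 (rank 13247, 200 bp), Mrpl23 (rank 12887, 500 bp), Mrps30 (rank 12693, 250 bp) and Mrpl42 (rank 12644, 300 bp). Mrps16 belongs to the small subunit, and its peak (chr14:20393400-20393599) began 35 bp downstream of the TSS. Mrpl23 and Mrpl24 belong to the set of proteins around the exit of the peptide tunnel. Mrps30 is part of the large subunit despite its name. These peaks were all in the last of 4 equal parts of the list. The shortest best-ranked peak was that of Mrps14, with 150 bp at rank 11938, and the peak of Mrpl27 had 250 bp at rank 12516.

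Over the 56 members the best-ranked peak had a median rank of 6689, with quartiles at 3234.75 and 9723.5. Over the 9630 protein-coding genes with a peak the median rank was 5174.5. The share of members with a peak was thus the higher, while their peaks stood lower in the list. The first 3837 peaks, 1 of 4 equal parts of the list, gave a peak to 17 of the 78 genes (21.8%), against 16.9% of all genes. The first 7674 peaks gave one to 31 (39.7%), against 30.0%. Across the 4 parts in order, 17, 14, 16 and 9 members had their best peak. For all genes with a peak the shares were 38.3%, 29.8%, 19.2% and 12.7%, and for members the first and the last were 30.4% and 16.1%.

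Peak lengths showed the same. The median length was 550 bp for members, with quartiles at 400 and 687.5 bp, and 650 bp for all genes with a peak, with quartiles at 400 and 1000 bp. Only 5 members (8.93%) had a best-ranked peak over 1000 bp, against 24.7% of all genes with a peak. These were Mrps18b (1650 bp), Mrps7 (1150 bp), Mrpl12 (1100 bp), Mrps6 (1050 bp) and Mrpl40 (1050 bp). Early peaks were the longer in both sets. The median length of members was 850 bp in the first part of the list and 250 bp in the last, and that of all genes 1050 and 300 bp.

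**Figure D3:**
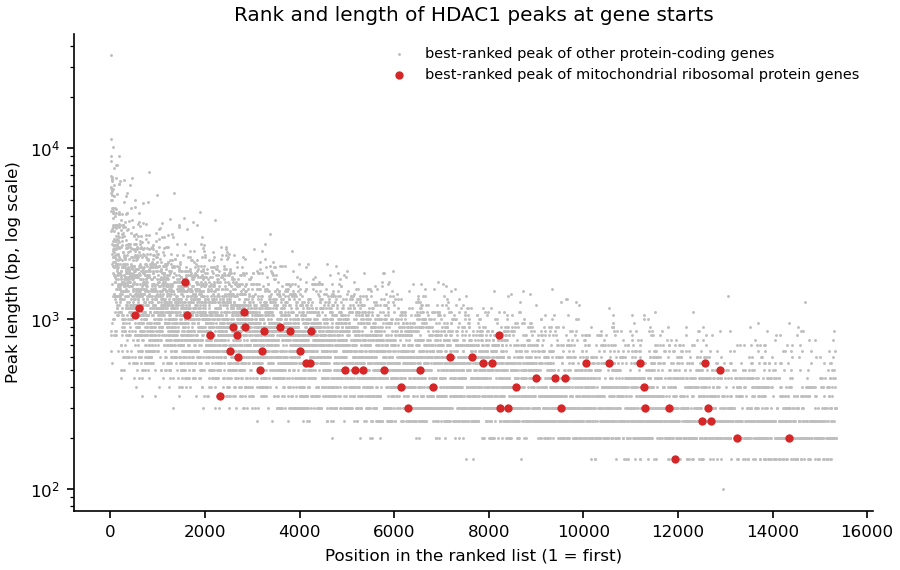
Length (y axis, bp, log scale) against position in the ranked list (x axis) of the best-ranked peak of 56 mitochondrial ribosomal protein genes (red) and of other protein-coding genes (grey). The red points run from 1650 bp near the start of the list to 200 bp near its end, and none exceeds 1650 bp, whereas grey points reach 35050 bp.

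With genes lacking a peak included, 7 members (8.97%) had 2 or more peaks in a window, against 2057 of all protein-coding genes (9.41%). Among genes with a peak the counts were 7 of 56 members and 2057 of 9630, a smaller share for members. Mrpl40 had 3, ranked 1628, 11967 and 12861, and Mrpl18, the counterpart of bacterial L18, had 3 as well, ranked 3198, 3756 and 15096. Mrps6 had a second peak of rank 5905 upstream of its TSS, between positions -420 and -121. Mrps18b had a second peak of rank 13436, which covered the TSS of the microRNA gene Mir1894. The second peak of Mrps26 was given above, that of Mrpl55 had rank 11602, and that of Mrpl48, with rank 10540, lay at another TSS of the gene. In all, the members had 64 distinct peaks in their windows.

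By place in the ribosome, 39 of 51 genes of the large subunit (76.5%) had a peak and 16 of 26 of the small subunit (61.5%). Mrps36, which is now known as a component of the 2-oxoglutarate dehydrogenase complex and was counted with neither, had a peak of rank 6285. The median ranks of the subunits were close, 6828 for the large and 6833 for the small, and both had a median length of 550 bp. Of genes with a bacterial counterpart, 33 of 46 (71.7%) had a peak, and of those particular to mitochondria, 22 of 31 (71.0%). Of the genes related to bacterial S18, Mrps18c was counted with the former, and Mrps18a and Mrps18b with the latter. With 26 genes, each small subunit gene moves that share by several points, and no replicate is available to set an error on either difference.

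The genes without a peak included parts of the translating core. In the large subunit they were Mrpl1, Mrpl4, Mrpl19, Mrpl20, Mrpl21, Mrpl32 and Mrpl33, with bacterial counterparts, and Mrpl37, Mrpl39, Mrpl45, Mrpl50 and Mrps18a, classed as particular to mitochondria. Mrpl45 sits at the tunnel exit and faces the inner membrane. In the small subunit they were Mrps9, Mrps10, Mrps12, Mrps17, Mrps21 and Mrps28, with bacterial counterparts, and Mrps22, Mrps25, Mrps31 and Mrps33. Mrps12 is the counterpart of bacterial S12 at the decoding centre. Of the 3 genes related to bacterial S18, Mrps18b (rank 1576) and Mrps18c (rank 3247) thus had peaks among the first 3837 and Mrps18a had none, its nearest peak being 24137 bp away.

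Proteins that touch in the ribosome did not have peaks of like rank in every case. In 2 groups picked after their values were seen, the stalk genes Mrpl10, Mrpl11 and Mrpl12 had ranks of 3153, 2518 and 2813, all among the first 3837 peaks. Around the tunnel exit, Mrpl47 had rank 3801, Mrpl22 had rank 8580, Mrpl23 had rank 12887, Mrpl24 had rank 13247 and Mrpl45 had no peak. The exit group therefore ran from the first part of the list to the last, with 1 gene outside it.

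The CpG ratios of members with and without a peak overlapped, but the share with a peak was higher among those with a high ratio. The ratio was taken as the number of CpG over that implied by the C and G content of the 300 bases. A ratio of at least 0.6 was called CpG-rich, whatever the C and G content. The median ratio was 0.821 for members and 0.552 for all protein-coding genes. Members with a peak had a median of 0.828 and those without one of 0.740, with ranges from 0.521 to 1.06 and from 0.388 to 1.25, the first inside the second. For all genes the medians were 0.804 with a peak and 0.271 without one.

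Of the 71 CpG-rich members, 53 (74.6%) had a peak, and of the 7 others 3 did (42.9%), namely Mrpl11, Mrpl44 and Mrps5. Among all genes the shares were 75.5% and 16.8%. The 4 CpG-poor members without a peak were Mrpl1, Mrpl19, Mrps9 and Mrps18a. With a higher cutoff of 0.8, added after the first values were seen, 34 of 41 members (82.9%) had a peak, against 83.6% of all genes. Below 0.8 it was 22 of 37 members (59.5%), against 29.6% of all genes. Within the CpG-rich promoters, peaks of members still stood lower: 15 of 71 members (21.1%) and 30.6% of all genes had one among the first 3837, the median ranks were 7176 and 4868.5, and 9.43% of members' best-ranked peaks and 26.2% of those of all genes exceeded 1000 bp.

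**Figure D4:**
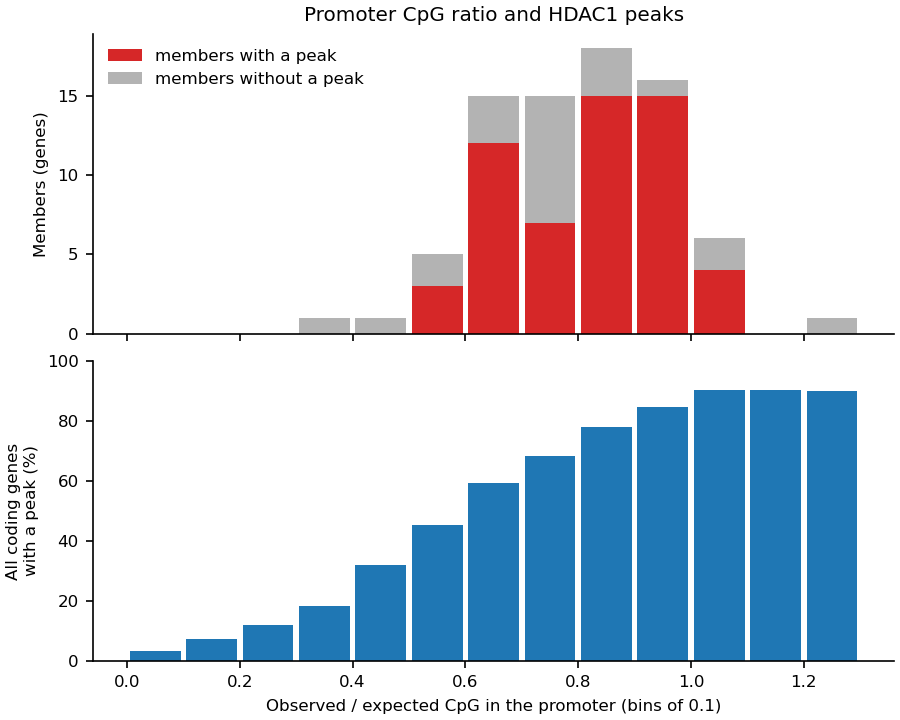
Upper panel, number of members (y axis) by observed over expected CpG of the promoter (x axis, bins of 0.1), with a peak (red) and without one (grey, stacked). Lower panel, share of all protein-coding genes with a peak (%) in the same bins, which rises from 3.21% to about 90% while most members lie above 0.6; ratios of 1.3 or more, where no member lies, are not drawn.

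Shared promoters were frequent. A divergent partner was a coding gene on the other strand whose TSS lay 1 to 1000 bp upstream of a TSS of the member. Such a partner stood at 25 of 78 members (32.1%) and at 1968 of all protein-coding genes (9.0%), with a median distance of 75 bp for members and 131 bp for all. A peak was present at 20 of the 25 members with a partner (80.0%) and at 79.4% of all genes with one. Without a partner, 36 of 53 members (67.9%) and 40.5% of all genes had a peak. Members with and without a partner thus differed less in their share than all genes did. Among CpG-rich promoters, members with a partner had a peak in 19 of 24 cases (79.2%, all genes 84.4%). Those without a partner had one in 34 of 47 cases (72.3%, all genes 73.8%).

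The peak was common to both genes in nearly all pairs. In 19 of the 20 (95%) a peak of the member lay in the partner's window too, and in 14 (70.0%) 1 peak covered the TSS of both, against 99.2% and 58.0% over all genes. Windows of close partners overlap by construction, so the first of these shares is fixed largely by distance. The exception was Mrpl36, whose partner Ndufs6 encodes a subunit of respiratory complex I. Their starts were 51 bp apart and without a peak, and the peak of Mrpl36 (rank 8070) lay at another TSS of the gene, inside it.

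The closest pair was Mrpl54 and Apba3, 26 bp apart, with a peak of 300 bp at rank 8229. That peak covered the TSS of Mrpl54, reaching 15 bp upstream, and stopped short of the TSS of Apba3. Mrps34 and Eme2, a subunit of a DNA endonuclease, were 29 bp apart, and the peak of 500 bp at rank 5791 began 34 bp inside Mrps34 and covered neither TSS. Mrps18c shared 850 bp at rank 3247 with Helq, a DNA helicase gene 29 bp away. Mrpl18 shared 650 bp at rank 3198 with Tcp1, a subunit of the cytosolic chaperonin, 37 bp away.

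The only pair in which both genes were members was Mrpl46, of the large subunit, and Mrps11, of the small subunit. Their TSSs lay 30 bp apart on chromosome 7, and a single peak (chr7:78782750-78783299, rank 7875, 550 bp) covered both. It counts for 2 of the 56 members with a peak, and the best-ranked peaks were therefore 55 in number. It extends from 369 bp upstream to 180 bp downstream of the Mrps11 TSS, so the promoter printed above lies wholly inside it.

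Other pairs joined a member to a further gene of mitochondrial gene expression or to unrelated functions. Mrpl43 and Twnk, which encodes the helicase that unwinds mitochondrial DNA, lay 116 bp apart under a peak of 900 bp at rank 2583. Mrps12 and Sars2, the mitochondrial seryl-tRNA synthetase gene, lay 182 bp apart and had no peak. Mrpl49 and Fau (59 bp), Mrpl14 and Tmem63b (63 bp) and Mrpl30 and Mitd1 (66 bp) each had 1 peak over both starts, at ranks 2700, 4236 and 6550. Of the pairs with a peakless member, Mrpl21 and Ighmbp2 (43 bp), Mrpl32 and Psma2 (75 bp), Mrpl50 and Zfp189 (83 bp) and Mrpl37 and Cyb5rl (120 bp) also lacked one at the partner.

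A further 7 members without such a partner faced a gene on the other strand whose TSS lay up to 1000 bp downstream of their own, so that the transcripts overlap at their 5′ ends. All 7 had a peak: Mrps7 (Gga3), Mrpl9 (Oaz3), Mrpl48 (Rab6a), Mrpl47 (Ndufb5), Mrpl13 (Mtbp), Mrpl27 (Eme1) and Mrps30 (B430218F22Rik). Among all protein-coding genes in this arrangement, 252 of 327 (77.1%) had one. Over all genes this arrangement was found at 1.5%, against 8.97% of members. Counting both kinds, 32 members (41.0%) and 10.5% of all genes shared their 5′ region with a coding gene on the other strand, and 84.4% and 79.1% of these had a peak. This second kind was added after the values of the first were seen.

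Peaks in the window of a further coding gene stood earlier in the list. For 29 of the 56 members with a peak (51.8%) the best-ranked one also lay in another coding gene's window, against 22.1% of all genes with a peak. These 29 had a median rank of 4134 and a median length of 600 bp. For the 27 whose peak lay in no other coding window the medians were 8397 and 450 bp. For all genes the corresponding medians were 4596 and 5294 in rank and 700 and 650 bp in length. In 19 members (33.9%) the best-ranked peak covered the TSS of another coding gene, against 15.2% of all genes with a peak. ChIP-seq of mixed cells cannot say which of the genes under a shared peak it belongs to.

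Short motifs in the promoters were counted on both strands as shares of all promoters of the same length. The ETS letters CCGGAAG occurred in 28 members (35.9%) and 11.1% of all promoters, the YY1 letters AAGATGGC in 11 (14.1%) and 2.96%, and the NRF1 letters GCATGCGC in 8 (10.3%) and 3.8%. In CpG-rich promoters alone the shares were 38.0%, 14.1% and 11.3% for members and 19.5%, 4.85% and 6.36% for all genes. The SP/KLF letters GGGCGG were in 48.7% of members and 44.9% of all promoters, and the TATA letters TATAAA in 8.97% and 12.5%. In CpG-rich promoters the order of members and all genes was the opposite for both, with GGGCGG in 50.7% and 73.2% and TATAAA in 9.86% and 5.82%. TGACGTCA, the letters of the cyclic AMP response element, was in 2.56% of members and 2.5% of all promoters, and in 2.82% and 4.04% of those rich in CpG.

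Members with and without a peak had like shares for the ETS letters (35.7% and 36.4%). YY1 letters were in 6 of 56 members with a peak and 5 of 22 without one, and NRF1 letters in 5 and 3. The NF-Y letters CCAAT differed most between the 2 sets, with 13 of 56 (23.2%) and 14 of 22 (63.6%). Put the other way, 48.1% of members with CCAAT and 84.3% of those without it had a peak, while over all genes the shares were 41.8% and 45.5%. In CpG-rich promoters they were 54.2% and 85.1% for members and 73.1% and 77.0% for all genes. CCAAT was the largest difference of 7 motifs looked at, it has only 5 letters, and it was singled out after its values were seen.

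Other genes of mitochondrial gene expression and 2 larger sets were read in the same way. All 5 other proteins of the mitochondrial ribosome had a peak: Dap3 at rank 1507, Ptcd3 at 1520, Chchd1 at 2472, Gadd45gip1 at 8629 and Aurkaip1 at 10554. Of 22 genes for assembly of the ribosome and its RNA, 15 (68.2%) had one, of 12 translation factors 9 (75%), of 20 mitochondrial tRNA synthetase and amidotransferase genes 15 (75%), and of 9 genes for replication and transcription of mitochondrial DNA 8 (88.9%). Over all protein-coding genes the share was 44.0%, and over those with CpG-rich promoters 75.5%. The sets of 5 and 9 genes are small, and none of these shares was tested. Tfam, which packages mitochondrial DNA, had rank 1640, and Noa1, a GTPase of ribosome assembly, had rank 69, ahead of every member. Tefm, the mitochondrial elongation factor of transcription, had none.

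Cytosolic ribosomal protein genes had a peak in 70 of 87 cases (80.5%), with a median rank of 4446.5 and a median length of 800 bp. That count leaves out the ribosomal S6 kinase genes and Rps19bp1, which the same symbols would take in and with which it is 76 of 98 (77.6%). Respiratory chain genes were taken by symbols that begin with Nduf, Sdha to Sdhd, Uqcr, Cox and a number, or Atp5. No gene was left out of that set, so assembly factors with such symbols are in it. It had a peak in 71 of 107 cases (66.4%), with a median rank of 6969 and a median length of 500 bp. The peaks of mitochondrial ribosomal protein genes were thus nearer in median rank and length to those of this respiratory chain set than to those of the cytosolic set. In CpG-rich promoters alone, the shares were 74.6% for members, 75.6% for the respiratory chain, 84.8% for cytosolic ribosomal proteins and 75.5% for all genes.

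**Figure D5:**
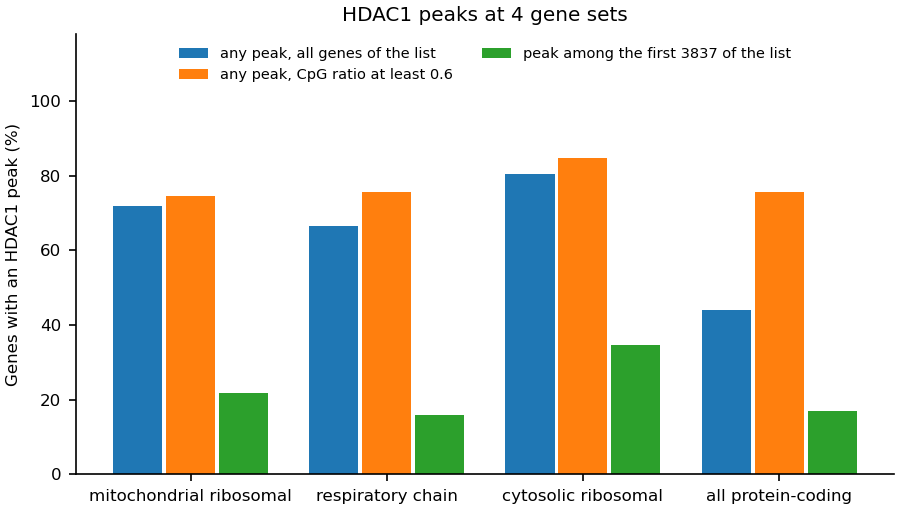
Share of genes with an HDAC1 peak (y axis, %) in 4 gene sets, for any peak (blue), any peak among genes with a CpG ratio of at least 0.6 (orange) and a peak among the first 3837 of the list (green). Members and all genes differ in the blue bars, 71.8% and 44.0%, and are level in the orange bars, 74.6% and 75.5%.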

How the data were processed

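HDAC1 ChIP-seq was done on 4 ChIP samples and 3 inputs. Per the authors' methods, CisGenome called peaks on mm10 with the false discovery rate held under 0.05. The submitters' processing notes name Bowtie2 2.2.5. The authors deposited 1 list of 15347 peaks for all ChIP samples, whose columns are coordinates on a grid of 50 bp rather than counts or signal. Weaker sites can fall under the threshold at any depth, and the depth per sample is not given by the list. Values of a single sample were not used here.

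Starts and ends were read as 1-based and inclusive. TSSs came from protein-coding transcripts of the GENCODE M21 basic annotation, and the best-ranked peak in a gene's window stood for the gene. CpG ratios and motifs used the most upstream coding TSS. Members, lists and measures were chosen with earlier results of these data known. Genes were named by rule: all without a peak, the 10 best- and 5 worst-ranked, the 5 longest and 5 shortest peaks, those with several peaks, the 10 closest divergent pairs, peaks off the TSS and those nearest the window edges. Subunit and origin classes and gene lists were written by hand from textbook knowledge. Overlap, partner and distance functions, tested on simulated data, matched a brute-force count for 600 of 600 genes. Scripts ran in Python 3.11.15 with numpy 2.4.6 and scipy 1.17.1, and figures were drawn with matplotlib 3.10.9.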

Additional observations from a re-analysis of the deposited data

How the results depend on the processing

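The share of members with a peak (71.8%) was the same in 5 kb or 500 bp windows, with all transcripts, with 50% overlap, with peaks merged across 1000 bp and with starts counted from 0, and 70.5% with the most upstream TSS alone. It was 57.7% where the peak had to cover the TSS base, 39.7% with the first 7674 peaks and 21.8% with the first 3837, and 82.9% among promoters with a CpG ratio of at least 0.8. The difference from all protein-coding genes (27.8 percentage points) was 9.74 with the first 7674 peaks and 4.93 with the first 3837. It turned to -0.855 among promoters with a CpG ratio of at least 0.6 and to -0.705 at 0.8, both settings being chosen after seeing the data. Below 0.6 the shares stayed apart, with 42.9% of only 7 members and 16.8% of all genes. Below 0.8 they were 59.5% and 29.6%. With the first 7674 and 3837 peaks the median length was 650 and 850 bp and the median rank 3588 and 2680, which follows from keeping early peaks. The share of divergent members whose peak lay in the partner's window (95%) was 70.0% where a peak had to cover both TSSs and 100.0% with the first 7674 peaks. The other 40 of 54 values stayed within a 95% interval taken over genes. Genes are not replicates, so that interval served only as a yardstick and measures no error of these data. No paired analysis was possible because peaks were pooled over samples, so that no sample could be left out and depth could not be examined.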

Other observations

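Members with a peak were unevenly spread over the chromosomes. Chromosome 11 held the most members, and 10 of its 11 had a peak, while 49.8% of its coding genes did. On chromosome 4 only Mrps15 of 4 members had one, and on chromosome 5 only Mrps18c of 4, against 48.8% and 50.8% of the coding genes there. These chromosomes were picked after their values were seen, and counts this small were not tested.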
